A study of Mus musculus with 5 samples.

Results

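Fibroblast growth factors (FGFs) are secreted ligands that act through receptor tyrosine kinases, and Sprouty proteins are inhibitors that the same signal switches on and that then limit it. The genes described here are 3 receptors (Fgfr1, Fgfr2 and Fgfr3), 5 ligands (Fgf1, Fgf2, Fgf7, Fgf9 and Fgf10) and the feedback inhibitors Spry1 and Spry2. They were chosen by name, 10 of the 24970 genes in the count tables, and 9 of the 10 passed the filter on low counts, against 14779 of all genes. RNA came from bladder urothelium, separated from the muscle layer, of 5 mice, with 1 library per mouse. The Ncstn KO group held 3 mice labelled Krt5CreERT2;Ncstnflox/flox (KO 1 to KO 3), and the WT group held 2 mice labelled C57Bl/6 (WT 1 and WT 2), all aged 10 weeks. In the knockouts a tamoxifen-dependent Cre under the basal-cell keratin promoter Krt5 is meant to remove Ncstn. That gene encodes nicastrin, a subunit of the gamma-secretase that activates Notch receptors. Cre acts in Krt5-expressing cells and their progeny, whereas the libraries hold RNA of every cell in the dissected tissue. The labels give the wild types a strain and no Cre, so strain, Cre and loss of Ncstn cannot be told apart here.

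In epithelial organs the receptors and ligands of this family are divided between layers. The epithelial splice form of FGFR2 responds to FGF7 and FGF10, which stromal cells secrete, and FGFR1 is best known from mesenchymal cells. FGFR3 is an epithelial receptor in the bladder, where activating mutations of the human gene are common in low-grade urothelial tumours. FGF1 can bind all the receptors, and FGF9 acts mainly on FGFR3 and on the mesenchymal splice forms. Splice forms are merged in these gene counts.

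Gene counts totalled 12608836 to 27188499 per library, so that 1 count was worth 0.0376 to 0.0779 counts per 1000000 (CPM, scaled by TMM factors). Ncstn had 114, 117 and 123 CPM in the knockouts, against 144 and 130 CPM in the wild types (adjusted p in edgeR = 0.133), levels that cover the whole gene and every cell type. These counts alone do not show whether Ncstn was lost in the Krt5-expressing cells. All 14 urothelial markers examined were detected, and their summed level was 21057 to 23454 CPM in Ncstn KO and 15118 to 17271 CPM in WT. The 13 fibroblast markers, also all detected, summed to 9336 to 11021 CPM in Ncstn KO and 15610 to 17728 CPM in WT, so both markers of the epithelium and markers of the stroma moved with genotype. The ribosomal precursor Rn45s took 0.608% to 1.53% of gene counts in Ncstn KO and 3.23% to 7.84% in WT. In such bulk tissue, fewer cells of a type and less RNA per cell cannot be told apart.

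Fgf9 and Spry1 rose in the Ncstn KO urothelium and none of the 10 genes fell. Fgf9 was 2.24-fold higher and Spry1 1.33-fold higher, while all 3 receptors, Fgf1, Fgf2, Fgf7 and Spry2 did not pass the test (edgeR quasi-likelihood, Benjamini-Hochberg adjusted over 14779 genes, threshold 0.05). Among all genes tested, 19.7% were called, 9.64% higher and 10.0% lower, and no test set the 2 of 9 apart from that share. At an unadjusted p under 0.05, 3 of the 9 members were higher and 0 lower in edgeR. Of all 14779 genes tested, 5145 reached that level in either direction, and no test set the 3 apart from that share. At the adjusted threshold, DESeq2 and limma-voom each also called 2 members higher and 0 lower. The CPM values of all 3 knockouts lay above both wild types for Fgfr2, Fgf7, Fgf9 and Spry1, which 25.9% of all genes tested also did (51.0% were separate in either direction). Of the 2 calls, that of Spry1 was lost without KO 1, KO 2, WT 1 or WT 2, which leaves 1 member higher in each case. The median log2 fold change was 0.25 over the 9 members and 0.0071 over all genes tested.

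**Figure D1:**
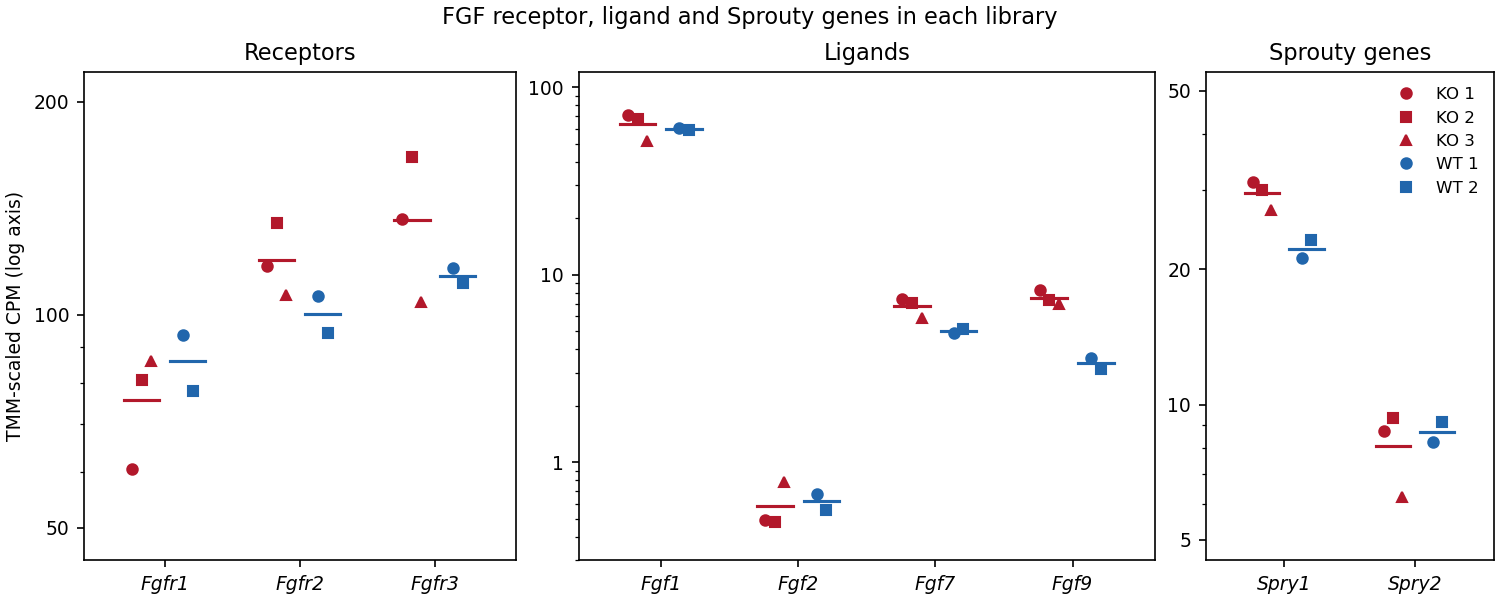
TMM-scaled CPM (log axis, a separate scale in each panel) of the 9 tested genes in each of the 3 Ncstn KO (red) and 2 WT (blue) libraries, with horizontal lines at group means. For Fgf9 and Spry1 the 2 groups are separate, for Fgfr1 and Fgfr3 they overlap, and Fgf2 lies under 1 CPM in every library.

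The promoter sequences of the 4 genes whose knockout libraries all lay above the wild types are shown, since these genes differed in the same direction. Each is the 250 bases before a RefSeq start (GRCm38.p6), written 5′ to 3′ on the strand of the gene. Capitals mark TGGGAA or its reverse complement TTCCCA, the core letters bound by RBPJ, the DNA-binding partner of Notch. The window of Fgf9 lies in an intron of a longer annotated Fgf9 transcript, that of Fgf7 in an intron of Fam227b on the opposite strand, and that of Spry1 under the opposite-strand transcript Gm42922.
Fgf9 (chr14:58072436-58072685, plus strand): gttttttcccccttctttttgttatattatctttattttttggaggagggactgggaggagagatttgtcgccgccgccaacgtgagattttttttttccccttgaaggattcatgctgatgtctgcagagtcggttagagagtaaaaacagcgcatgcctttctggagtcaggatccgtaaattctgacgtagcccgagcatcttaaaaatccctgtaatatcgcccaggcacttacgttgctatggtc
Spry1 (chr3:37639697-37639946, plus strand): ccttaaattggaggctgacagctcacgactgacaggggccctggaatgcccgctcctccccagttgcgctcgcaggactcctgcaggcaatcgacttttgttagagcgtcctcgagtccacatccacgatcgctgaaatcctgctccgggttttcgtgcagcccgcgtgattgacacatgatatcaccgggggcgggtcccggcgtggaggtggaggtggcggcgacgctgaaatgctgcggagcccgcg
Fgf7 (chr2:126034408-126034657, plus strand): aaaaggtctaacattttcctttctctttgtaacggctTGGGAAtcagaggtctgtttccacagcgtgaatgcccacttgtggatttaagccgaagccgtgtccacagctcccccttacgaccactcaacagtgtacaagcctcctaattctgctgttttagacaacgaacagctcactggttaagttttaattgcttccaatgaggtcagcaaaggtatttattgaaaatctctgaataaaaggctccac
Fgfr2 (chr7:130266809-130267058, minus strand): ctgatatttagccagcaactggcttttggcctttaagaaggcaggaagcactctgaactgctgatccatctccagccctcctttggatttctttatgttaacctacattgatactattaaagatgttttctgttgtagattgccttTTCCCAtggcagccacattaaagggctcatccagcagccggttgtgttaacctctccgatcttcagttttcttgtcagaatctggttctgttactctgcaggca
The core letters occurred 1 time in the Fgf7 window and 1 time in the Fgfr2 window. Neither Fgf9 nor Spry1, the 2 genes that passed the test, held them in this window. Over all 32851 RefSeq windows of this length, 21.6% held the core on either strand. The longer GTGGGAA, which contains the core, occurred in none of the 4 and in 5.42% of all windows, and the ETS-factor core CCGGAA (or TTCCGG) in none of the 4 and in 12.0%. RefSeq windows were found for 8 of the 10 genes, all but Fgfr1 and Fgf1. Of the windows not shown, that of Fgf10 also held the RBPJ core 1 time, and those of Fgf2, Fgfr3 and Spry2 held none.

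Among the receptors, Fgfr2 on chromosome 7 (130162451 to 130266808, RefSeq positions on GRCm38.p6 here and below) had 117, 135 and 107 CPM in KO 1, KO 2 and KO 3, against 106 and 94.2 CPM in WT 1 and WT 2. All knockouts were above both wild types, but KO 3 lay barely above WT 1. The log2 fold change was 0.25 ± 0.12 (SE), with a 95% interval from -0.0037 to 0.51, and the gene did not pass (adjusted p in edgeR = 0.149). A small part of the annotated exons, 314 bases, overlaps Ctbp2 on the same strand in a read-through transcript.

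Fgfr3, on chromosome 5 (33721724 to 33737068), stood at 136, 167 and 104 CPM in the 3 knockouts, against 116 and 111 CPM in the 2 wild types. KO 1 and KO 2 were above both wild types and KO 3 was below both. The log2 fold change was 0.26 ± 0.16 (SE; 95% interval -0.10 to 0.62) and did not pass (adjusted p in edgeR = 0.287). Without KO 3 it was 0.40 and passed (adjusted p in edgeR = 0.0237), and without KO 2 it was 0.075 (adjusted p in edgeR = 0.772). The size and call therefore depend on which knockout is left out. Leaving out KO 3 also raised the number of changed genes over all genes tested, from 2907 to 3989.

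Fgfr1, on chromosome 8 (25518759 to 25575718), stood at 60.6, 80.9 and 86.1 CPM in the knockouts, against 93.7 and 78.1 CPM in the wild types. Only KO 1 lay below both wild types, and the groups overlapped. The log2 fold change was -0.19 ± 0.15 (SE; 95% interval -0.51 to 0.14; adjusted p in edgeR = 0.404).

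Compared per kilobase of annotated exon (RPKM, with exon lengths from GENCODE vM21), the receptors kept the order Fgfr3, Fgfr2, Fgfr1 in all 5 libraries. Fgfr3 averaged 19.0 ± 4.38 RPKM in Ncstn KO and 15.9 ± 0.525 RPKM in WT (SD, n = 3 and 2). Fgfr2 averaged 11.6 ± 1.36 RPKM in Ncstn KO and 9.70 ± 0.818 RPKM in WT. For Fgfr1 the averages were 7.68 ± 1.36 RPKM in Ncstn KO and 8.70 ± 1.12 RPKM in WT. The ranges of mean ± SD of Fgfr2 and Fgfr1 overlapped in WT, although Fgfr2 was above Fgfr1 in each library. The per-length ratio of Fgfr1 to Fgfr2 was 0.540, 0.629 and 0.844 in the knockouts, against 0.923 and 0.866 in the wild types. All 3 knockouts were lower, KO 3 by little, and the exact two-sided permutation p was 0.2 where 10 arrangements allow no less than 0.1 (adjusted p = 0.236 over the 13 ratios computed). Fgfr3 to Fgfr2 was 1.63 ± 0.195 in Ncstn KO and 1.64 ± 0.0840 in WT (SD, n = 3 and 2).

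Other receptor-side genes were examined beside these. Fgfr4 was barely present, with 0.602 to 0.934 CPM in Ncstn KO and 0.627 to 0.783 CPM in WT. Fgfrl1, which encodes a receptor lacking the kinase domain, averaged 16.2 ± 1.40 CPM in Ncstn KO and 16.99 ± 0.0230 CPM in WT (SD, n = 3 and 2; adjusted p in edgeR = 0.744). Of 9 such receptors and co-receptors 7 were tested and 1 rose in edgeR, while 0 fell (2 at an unadjusted p under 0.05, and 0 in DESeq2 and in limma-voom). The gene that rose was Flrt3, which encodes a membrane protein that binds FGF receptors, by 0.42 on the log2 scale (adjusted p in edgeR = 0.0417). Its call was lost without KO 1, KO 3, WT 1 or WT 2 (adjusted p in edgeR = 0.129, 0.0576, 0.132 and 0.215).

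The splicing factors ESRP1 and ESRP2 are epithelial proteins that direct the epithelial splice form of FGFR2, and PTBP1 and RBFOX2 are also known to act on that exon. All 4 genes passed, 3 higher and 1 lower. Esrp1 was at 201, 182 and 207 CPM in the knockouts, against 155 and 141 CPM in the wild types, and rose 1.33-fold (adjusted p in edgeR = 0.0183). Esrp2 rose 1.25-fold (adjusted p in edgeR = 0.0452), Ptbp1 rose 1.28-fold (adjusted p in edgeR = 0.0231) and Rbfox2 fell 1.34-fold (adjusted p in edgeR = 0.0184). Without WT 1 none of the 4 passed (adjusted p in edgeR = 0.069, 0.189, 0.115 and 0.141 for Esrp1, Esrp2, Ptbp1 and Rbfox2). None passed without KO 1 either (adjusted p in edgeR = 0.0596, 0.0604, 0.0639 and 0.065), Esrp1 alone of the 4 passed without KO 2, and Rbfox2 alone without WT 2. Esrp2 also did not pass without KO 3 (adjusted p in edgeR = 0.0996). The summed urothelial markers were higher in every knockout, and their part in this result was not tested.

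**Figure D2:**
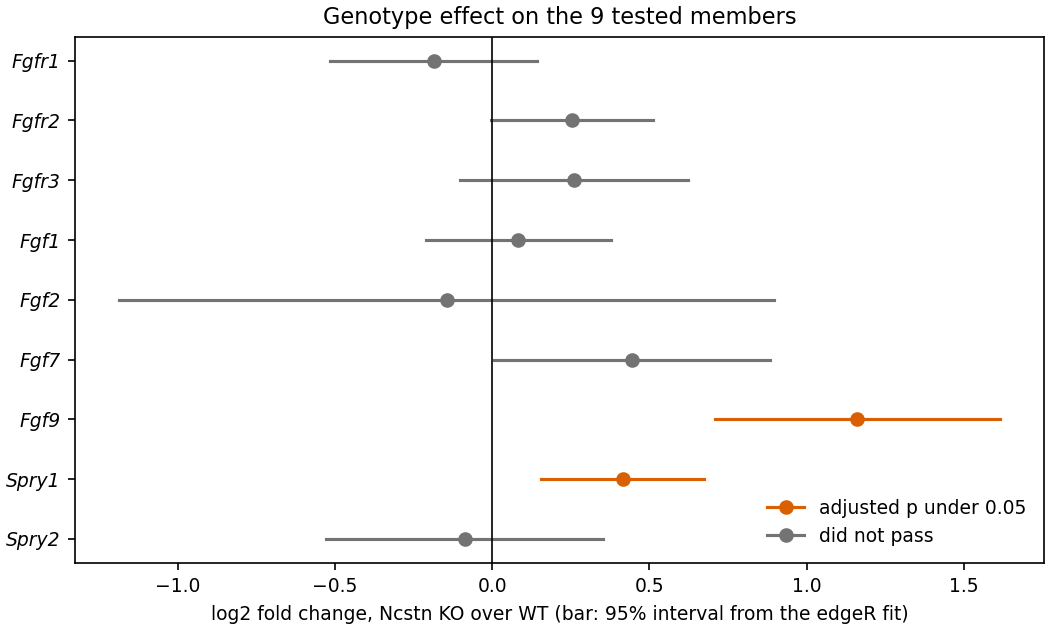
Log2 fold change (Ncstn KO over WT) of the 9 tested genes on the horizontal axis, with bars for the 95% interval of the edgeR fit. Fgf9 at 1.16 and Spry1 at 0.42 passed the test (orange), and the grey genes did not, and Fgf2, with 8 to 13 counts per library, has the widest interval.

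Among the ligands, Fgf9 on chromosome 14 (58070671 to 58112854) had 8.28, 7.34 and 7.01 CPM in KO 1, KO 2 and KO 3, against 3.60 and 3.14 CPM in WT 1 and WT 2. The groups were far apart, with the lowest knockout well above the higher wild type. The mean was 7.54 ± 0.661 CPM in Ncstn KO and 3.37 ± 0.330 CPM in WT (SD, n = 3 and 2), a log2 fold change of 1.16 ± 0.20 (SE; adjusted p in edgeR = 0.00416). These levels rest on 90 to 220 counts per knockout library and 45 to 69 counts per wild-type library. Leaving out each library in turn gave log2 fold changes of 1.05 to 1.26, each of which passed (adjusted p in edgeR up to 0.0465). Relative to the summed urothelial markers, Fgf9 was 0.353, 0.322 and 0.333 CPM per 1000 marker CPM in the knockouts and 0.238 and 0.182 in the wild types, and it was higher in every knockout (log2 difference 0.69; exact two-sided permutation p = 0.1, the smallest that 10 arrangements give; adjusted p = 0.13 over 13 ratios). Upk2 had the largest log2 fold change of the 14 urothelial markers, at 0.87. Against Upk2 alone the difference in Fgf9 was smaller, with 4.63 ± 0.149 CPM of Fgf9 per 1000 CPM of Upk2 in Ncstn KO and 3.80 ± 0.574 in WT (SD, n = 3 and 2; log2 difference 0.29). All 3 knockouts were above both wild types in this ratio too (exact two-sided permutation p = 0.1; adjusted p = 0.13 over 13 ratios).

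Fgf7, which encodes keratinocyte growth factor and lies on chromosome 2 (126034658 to 126091185), had 7.45, 7.10 and 5.84 CPM in the knockouts, against 4.91 and 5.16 CPM in the wild types. The 3 knockouts were above both wild types. The log2 fold change was 0.44 ± 0.20 (SE; 95% interval 0.0053 to 0.88) and did not pass after adjustment (unadjusted p = 0.0478 and adjusted p = 0.139 in edgeR).

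FGF7 is known as a product of stromal fibroblasts, most of whose markers were lower in Ncstn KO. Of 13 fibroblast markers, 11 fell and 2, Dpt and Thy1, did not pass (log2 fold changes 0.33 and 0.86), and the median log2 fold change was -0.67. The count that fell was 7 without KO 1 and 4 without WT 1. Pdgfra, a fibroblast receptor gene, fell to 99.5, 119 and 118 CPM in the knockouts, against 183 and 158 CPM in the wild types (adjusted p in edgeR = 0.00498, and 0.0696 without WT 1). Col1a1 averaged 1908 ± 333 CPM in Ncstn KO and 3399 ± 435 CPM in WT (SD, n = 3 and 2; adjusted p in edgeR = 0.00713, and 0.074 without WT 1).

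Set against the fibroblast marker sum, Fgf7 was 0.798, 0.653 and 0.530 CPM per 1000 marker CPM in the knockouts and 0.277 and 0.330 in the wild types. Fgfr1, whose cell of origin is not shown by these counts, was 6.49, 7.45 and 7.81 CPM per 1000 marker CPM in the knockouts and 5.29 and 5.001 in the wild types. Both ratios were higher in all 3 knockouts than in both wild types, by 1.11 and 0.49 on the log2 scale (exact two-sided permutation p = 0.1 each, the smallest that 10 arrangements give; adjusted p = 0.13 over 13 ratios). The marker sum was lower in every knockout, so a gene with unchanged CPM would also give a higher ratio. Most of that sum came from the matrix genes Col1a1, Col1a2, Col3a1 and Dcn. Neither Fgf7 nor Fgfr1 passed the test in CPM, and the part of the stromal share in either was not tested. Per length, Fgf7 relative to Pdgfra was 0.190 ± 0.0393 in Ncstn KO and 0.0917 ± 0.0129 in WT (SD, n = 3 and 2).

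**Figure D3:**
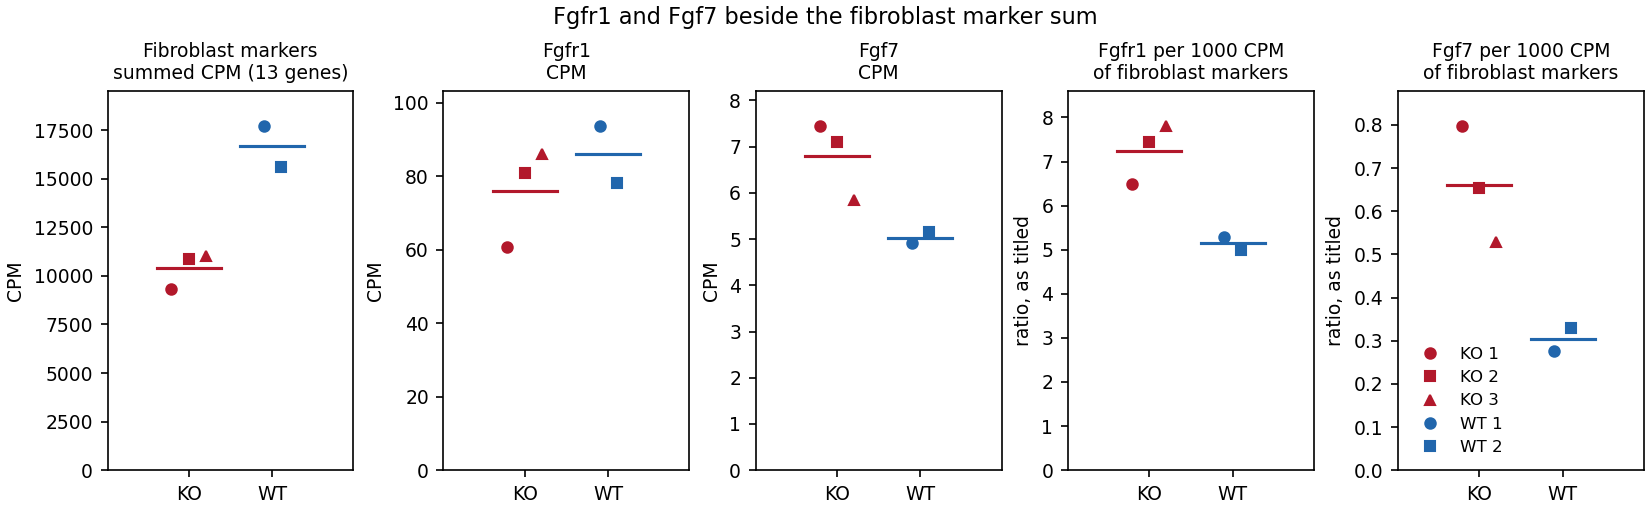
From left to right, the summed CPM of 13 fibroblast markers, the CPM of Fgfr1 and of Fgf7, and Fgfr1 and Fgf7 per 1000 CPM of those markers, in each of 3 Ncstn KO (red) and 2 WT (blue) libraries with lines at group means and axes from 0. The marker sum is lower in every knockout (at most 11021 against at least 15610 CPM), whereas both ratios are higher in every knockout.

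Fgf1, on chromosome 18 (38838672 to 38929470), was the ligand with the highest level per length and had 70.8, 67.8 and 51.7 CPM in the knockouts, against 60.7 and 59.3 CPM in the wild types. KO 3 was below and the other knockouts above both wild types, and the log2 fold change of 0.084 ± 0.13 (SE; 95% interval -0.21 to 0.38) did not pass (adjusted p in edgeR = 0.692). Per length, Fgf1 averaged 11.6 ± 1.88 RPKM in Ncstn KO and 10.99 ± 0.185 RPKM in WT (SD, n = 3 and 2), near the level of Fgfr2. Fgf7 followed with 2.09 ± 0.261 RPKM in Ncstn KO and 1.55 ± 0.0541 RPKM in WT. Next came Fgf9 with 1.62 ± 0.142 RPKM in Ncstn KO and 0.725 ± 0.0711 RPKM in WT. In the knockouts this order of Fgf7 and Fgf9 depends on the exon lengths used. In CPM, Fgf9 was above Fgf7 in every knockout and below it in both wild types. The per-length ratio of Fgf7 to Fgf9 was 1.29 ± 0.0958 in Ncstn KO and 2.15 ± 0.286 in WT, so these 2 ligands were closer in level in the knockouts.

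Fgf2, basic FGF, on chromosome 3 (37348477 to 37410106), lay near the limit of detection with 13, 8 and 10 counts in KO 1, KO 2 and KO 3, against 13 and 8 counts in WT 1 and WT 2. At this depth a log2 fold change anywhere from -1.19 to 0.90 lay within the 95% interval (adjusted p in edgeR = 0.857). Its exons share 640 bases with Nudt6 on the opposite strand, and the sources used here do not give the strand setting of the counting, so the Fgf2 counts are uncertain. The exons of Spry1 share 710 bases with Gm42922, and those of Fgfr3 share 998 bases with G630022F23Rik, both on the opposite strand. Neither Gm42922 nor G630022F23Rik was among the counted genes, whereas Nudt6 was. Fgfr1 shares 164 exon bases with the opposite-strand gene Gm16159, which was also counted.

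Fgf10, on chromosome 13 (118714699 to 118792573) and the other main stromal ligand of the epithelial FGFR2 form, had 0 counts in each of the 5 libraries. With 3 counts as the limit that a count of 0 allows, its level was below 0.113 to 0.234 CPM per library and below 0.0335 CPM over all libraries together (counting error only). These limits hold only if the counting could assign reads to Fgf10, which the sources used here do not show. Its exons share 123 bases with Gm16263 on the opposite strand. Fgf7 had 559 counts in the same libraries. In the tables, 4985 of 24970 genes were at 0 in all libraries.

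Of the 17 other FGF ligand genes, 5 were at 0 everywhere and only Fgf11 had enough counts to be tested. Fgf11 encodes a non-secreted member of the family and fell 1.90-fold, with 2.37, 3.01 and 2.34 CPM in the knockouts and 4.54 and 5.23 CPM in the wild types (adjusted p in edgeR = 0.0257). That call was lost without KO 1, WT 1 or WT 2 (adjusted p in edgeR = 0.0819, 0.124 and 0.138).

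Heparan sulfate chains hold FGFs and help them bind their receptors. Of 25 genes for such proteoglycans and their enzymes, 23 were tested, 2 rose, 5 fell and 16 did not pass, with a median log2 fold change of -0.046. Hs3st3b1, a 3-O-sulfotransferase gene, rose 3.73-fold at low level (3.80 ± 1.16 CPM in Ncstn KO and 0.993 ± 0.517 CPM in WT; SD, n = 3 and 2; adjusted p in edgeR = 0.00992, and 0.0851 without WT 2). Its log2 fold change was 1.90, against 2.59 without WT 1 and 1.47 without WT 2. The syndecan gene Sdc4 rose 1.37-fold (adjusted p in edgeR = 0.0180) and did not pass without KO 1, KO 2, WT 1 or WT 2 (adjusted p in edgeR = 0.0658, 0.0542, 0.103 and 0.0838). Gpc3, a glypican gene, Sulf1, which encodes a sulfatase that trims heparan sulfate, and the perlecan gene Hspg2 fell 2.07-fold, 1.77-fold and 2.07-fold (adjusted p in edgeR = 0.00082, 0.00252 and 0.00868). Hspg2 did not pass without WT 1 (adjusted p in edgeR = 0.127). The other 2 that fell, named after their values were seen, were Gpc1 and Gpc6. Without WT 1, 2 genes fell and 1 rose, without KO 1 or KO 2 1 rose, and without WT 2 none rose. The fibroblast marker sum was lower in the same libraries as the genes that fell, and its part in them was not tested.

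Turning to feedback, Spry1 on chromosome 3 (37639947 to 37644599) had 31.3, 30.1 and 27.2 CPM in KO 1, KO 2 and KO 3, against 21.3 and 23.2 CPM in WT 1 and WT 2. All knockouts were above both wild types. The mean was 29.5 ± 2.13 CPM in Ncstn KO and 22.2 ± 1.38 CPM in WT (SD, n = 3 and 2), a log2 fold change of 0.42 ± 0.12 (SE; adjusted p in edgeR = 0.0325). The direction held in each set of 4 libraries, with log2 fold changes from 0.34 up. The call was lost without KO 1, KO 2, WT 1 or WT 2 (adjusted p in edgeR = 0.116, 0.0926, 0.224 and 0.0849). Relative to the summed urothelial markers, Spry1 was not higher, with 1.34, 1.32 and 1.29 CPM per 1000 marker CPM in the knockouts and 1.41 and 1.34 in the wild types (log2 difference -0.063; exact two-sided permutation p = 0.1, the smallest that 10 arrangements give; adjusted p = 0.13 over 13 ratios).

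Spry2, on chromosome 14 (105891947 to 105896819), had 8.73, 9.32 and 6.23 CPM in the knockouts, against 8.25 and 9.13 CPM in the wild types. The groups overlapped and KO 3 was lowest (log2 fold change -0.087 ± 0.20, SE; 95% interval -0.53 to 0.35; adjusted p in edgeR = 0.793). Per length, the ratio of Spry1 to Spry2 was 2.58, 2.32 and 3.13 in the knockouts, against 1.85 and 1.83 in the wild types. The ratio was higher in every knockout (exact two-sided permutation p = 0.1, the smallest that 10 arrangements give; adjusted p = 0.13 over 13 ratios). Spry4, the third Sprouty gene detected, averaged 7.72 ± 1.32 CPM in Ncstn KO and 6.31 ± 1.24 CPM in WT and did not pass (adjusted p in edgeR = 0.337).

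Of 8 other inhibitors of the same pathway that were tested, Spry4 among them, 4 fell and 4 did not pass, and 7 of the 8 had all knockouts below both wild types, as did 25.1% of all genes tested. Dusp4, which encodes a nuclear phosphatase of MAP kinases, fell to 20.4, 20.2 and 24.8 CPM in the knockouts, against 76.3 and 68.3 CPM in the wild types, a 3.33-fold difference (adjusted p in edgeR = 2.25e-05). It passed in each set of 4 libraries. The fibroblast markers (11 of 13) and endothelial markers (3 of 8) fell in the same knockouts, and their part in these inhibitors was not tested.

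Spred3 and Spred1, which encode Sprouty-related inhibitors of Ras and Raf activation, fell 2.26-fold and 1.58-fold (adjusted p in edgeR = 0.00134 and 0.00482). Spred1 did not pass without WT 1 (adjusted p in edgeR = 0.0676). The gene Il17rd, for an FGF receptor antagonist, also fell and was named after its values were seen (log2 fold change -0.55, adjusted p = 0.0444 in edgeR). Dusp6, which encodes an ERK phosphatase widely read as a marker of FGF signalling, had 25.5, 25.4 and 18.9 CPM in the knockouts and 33.0 and 29.3 CPM in the wild types. All knockouts were lower, but the gene did not pass (log2 fold change -0.41, adjusted p in edgeR = 0.0698), and it did with upper-quartile scaling, no scaling factors, no filter or a filter at 5 CPM (adjusted p in edgeR = 0.049, 0.0491, 0.0208 and 0.049). The number of the 8 inhibitors that fell was 2 without WT 1 and 3 without KO 1, KO 2 or WT 2.

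**Figure D4:**
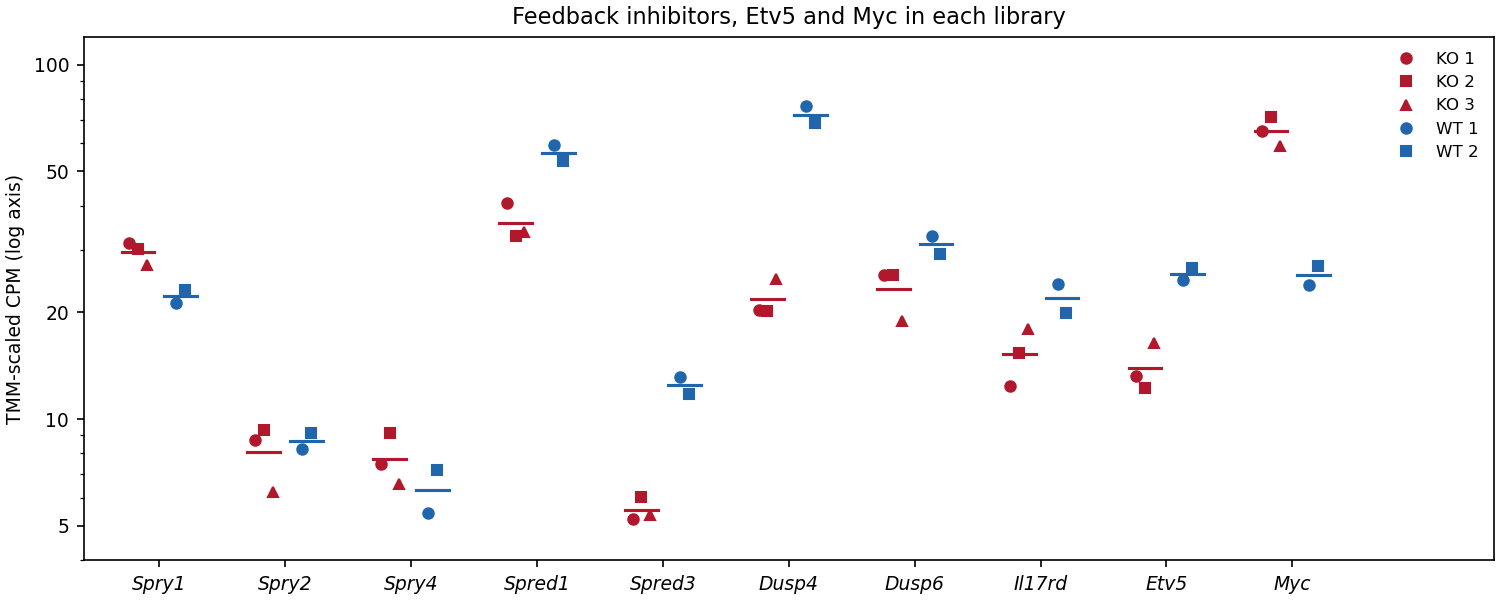
TMM-scaled CPM (log axis) of 8 feedback inhibitors, Etv5 and Myc in the 3 Ncstn KO (red) and 2 WT (blue) libraries, with lines at group means. Spry1 and Myc are higher in every knockout, Spry2 and Spry4 overlap, and Spred1, Spred3, Dusp4, Dusp6, Il17rd and Etv5 are lower in every knockout.

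Genes that ERK signalling induces were divided. Of 10 tested, 2 rose, 2 fell and 6 did not pass, with a median log2 fold change of -0.61. The ETS factor gene Etv5, a known target of FGF signalling, had 13.2, 12.2 and 16.4 CPM in the knockouts and 24.8 and 26.8 CPM in the wild types, and fell 1.86-fold (adjusted p in edgeR = 0.00275). Its relative Etv4 stood at 0.151, 0.421 and 0.0779 CPM in the knockouts and 0.783 and 0.627 CPM in the wild types and did not pass (adjusted p in edgeR = 0.0815, and 0.0297 without KO 2). Ccnd1, for a cyclin of early cell cycle, fell 1.54-fold (adjusted p in edgeR = 0.00441). Myc and Ier3, an early growth-response gene, rose 2.56-fold and 1.63-fold (adjusted p in edgeR = 9.66e-05 and 0.0055), and the Ier3 call was lost without WT 1 (adjusted p in edgeR = 0.0857). The number that fell was 4 without KO 2, and also 4 in all libraries with upper-quartile scaling, with no scaling factors, with no filter and with a filter at 5 CPM.

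Genes acting between receptor and nucleus had a narrower range of log2 fold changes than the other feedback inhibitors or the ERK-induced genes. Of 10 receptor adaptor genes tested, including Frs2, Grb2 and Ptpn11, 0 passed in edgeR (0 higher and 2 lower at an unadjusted p under 0.05), and DESeq2 and limma-voom each called 1 lower. Their log2 fold changes ran from -0.67 to 0.19. Among the genes of the Ras, Raf, MEK and ERK steps, Braf, which encodes a Raf kinase, had 128, 114 and 136 CPM in the knockouts, against 194 and 152 CPM in the wild types, and fell 1.37-fold (adjusted p in edgeR = 0.0268). All knockouts were below both wild types. The call was lost without KO 1, KO 2 or WT 1 (adjusted p in edgeR = 0.0652, 0.0877 and 0.248).

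**Figure D5:**
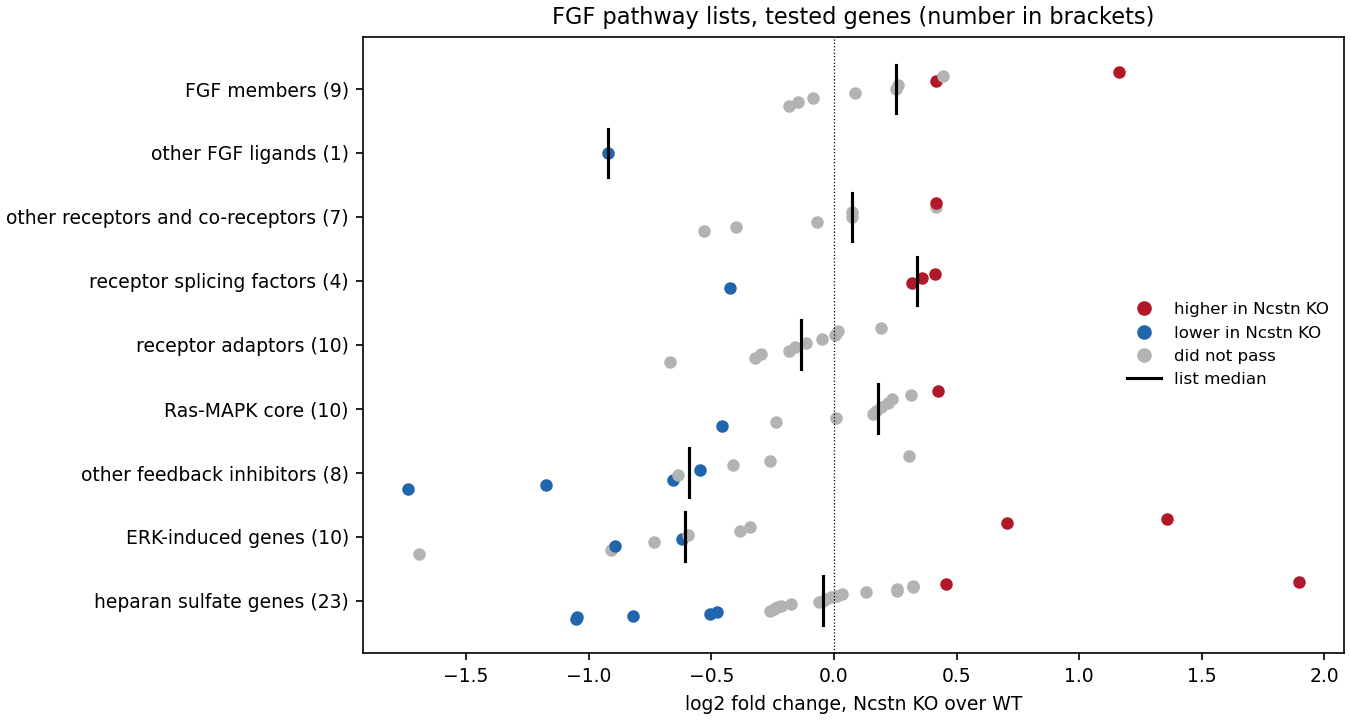
Log2 fold change (Ncstn KO over WT, horizontal axis) of each tested gene in the FGF lists, with red for higher, blue for lower and grey for genes that did not pass, and a black line at each list median. The feedback inhibitors other than Spry1 and Spry2 lie mostly left of 0 (median -0.59), while the 10 adaptor genes stay between -0.67 and 0.19 and none is coloured.

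As a description of likeness, each member was set beside the other listed genes by Pearson's r of log2 CPM over the 5 libraries, which share the genotype split. Among 137 listed genes, Fgf9 was most like Upk2 (r = 0.983) and Spry1 most like Upk1b (r = 0.986), both of which encode plaque proteins of umbrella cells. Upk2 itself had 1626 ± 89.2 CPM in Ncstn KO and 890 ± 47.5 CPM in WT (SD, n = 3 and 2). Fgf7 was most like Grb2 (r = 0.983) and Fgfr2 most like the heparan sulfate gene Hs6st1 (r = 0.952). Fgfr3 was most like the smooth muscle marker Cnn1 (r = 0.953) and Fgf1 most like the fibroblast marker Dpt (r = 0.944), and both of these markers were low in KO 3 relative to the other knockouts. Fgfr1, Fgf2 and Spry2 were most like Shc1 (r = 0.925), Hs2st1 (r = 0.885) and Sdc1 (r = 0.906).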

How the data were processed

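RNA was read from 5 urothelium libraries, 3 Ncstn KO and 2 WT. The authors deposited raw gene counts, 1 table per library, and the tools listed, per the submitters' processing notes, are DESeq2, HTSeq 0.11.1 and HISAT2 2.1.0, with build mm10. The sources used here give neither annotation nor strand setting. Of all tallied reads, 49.3% to 60.6% were in genes, and the 5 summary entries were left out. Low genes were removed by filterByExpr (at least 10 counts, and 15 in total), and counts were scaled with TMM and tested with edgeR 4.0.16 (quasi-likelihood, genotype only, Benjamini-Hochberg) in R 4.3.3. SE is the log2 fold change divided by the square root of F. The test was checked on simulated data, where it recovered 27 of 50 genes altered 1.5-fold and 44 of 50 altered 2-fold. Alternatives used DESeq2 1.42.0, limma-voom 3.58.1, other scaling and filters, a replicate block and leaving out libraries. RPKM divides CPM by the exon union of GENCODE vM21 (GRCm38). Members and lists were chosen with earlier results of these data known, and the 13 ratios were added after the files were seen. Named genes were the members, up to 3 genes per pathway list and direction that passed, with the smallest p, genes set by name (Esrp1, Esrp2, Fgfrl1, Fgfr4, Spry4, Dusp6, Etv4, Etv5 and 7 marker genes), and the most alike gene. Replicates are separate mice per the design text. A result on a listed gene is not reported here. The precision of low genes is limited by depth.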

Additional observations from a re-analysis of the deposited data

How the results depend on the processing

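Of 134 values of the 9 tested members under alternatives, 123 kept direction and side of the threshold, and for the other named genes 411 of 474 did. No replicate pair agreed within counting noise (chi-square per degree of freedom 9.26 to 36.3). The number of changed genes, 2907, was 715 to 3989 when 1 library was left out, and the number of members that rose, 2, was then 1 to 3, with none lower in any setting. A replicate block (KO 3 alone) gave 4637 changed genes and 4 members higher, adding Fgfr2 (0.33, adjusted p in edgeR = 0.0302) and Fgfr3 (0.41, adjusted p in edgeR = 0.00505). The correlation of deviations was -0.080 for KO 1 with WT 1 and 0.074 for KO 2 with WT 2. With 2 wild types, the unmatched pairs give the same values with the sign reversed (0.080 and -0.074). These values therefore cannot show whether replicate numbers pair the samples. Log2 fold changes that changed sign, none of which passed, ranged over the sets of 4 libraries from -0.0043 to 0.19 for Fgf1, from -0.37 to 0.018 for Fgf2, from -0.20 to 0.039 for Spry2, from -0.13 to 0.0042 for Fgfrl1 and from -0.090 to 0.26 for Fgfr4 (-0.070 without WT 2). With the block they were 0.057 for Spry2 and -0.074 for Fgfr4. DESeq2, limma-voom, a robust fit, 2 other scalings, no scaling factors, both filters and leaving out Rn45s and Malat1 each gave 2 members higher and 0 lower. Esrp2 did not pass with relative log expression, upper-quartile or no factors, a filter at 5 CPM, or without Rn45s and Malat1, and Flrt3 not with upper-quartile, no factors or that filter. The cause was not tested. Depth limits Fgf2, Fgfr4 and Etv4 most.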

Other observations

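KO 3 stood apart among the knockouts for most of these genes. Of the 9 tested members, KO 3 had the lowest CPM of the 3 knockouts in 7, namely Fgfr2, Fgfr3, Fgf1, Fgf7, Fgf9, Spry1 and Spry2, and the highest in the other 2, Fgfr1 and Fgf2. Over all genes tested it was the lowest knockout in 37.7% and the highest in 35.7%. In the same library the smooth muscle genes Acta2 and Cnn1 had 116 and 1.71 CPM, against 179 and 180 CPM for Acta2 and 5.72 and 7.40 CPM for Cnn1 in KO 1 and KO 2. The listed smooth muscle markers were divided in this. Tagln, Actg2, Myl9 and, by little, Lmod1 were also lowest in KO 3 among the knockouts, whereas Myh11, Des and Synpo2 were lowest in KO 1. The leukocyte gene Ptprc had 11.7 CPM in KO 3, against 4.03 and 4.99 CPM in KO 1 and KO 2. The listed immune markers were also divided. Cd68, Csf1r, Lyz2, Cd79a and, by little, Adgre1 were highest in KO 3 among the knockouts too, with Cd79a near the limit of detection. Itgam was highest in KO 2 and Cd3e in KO 1. The summed immune markers were 184 CPM in KO 3 and 99.7 and 154 CPM in KO 1 and KO 2, against 204 and 221 CPM in WT 1 and WT 2. These genes were picked after their values were seen, and their part in the member values was not tested.

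Among the marker lists, Schwann cell markers summed to 99.0 to 172 CPM in Ncstn KO and 77.2 to 86.5 CPM in WT, and 1 of 5 rose (0 without WT 1 or WT 2). Of 14 urothelial markers 5 rose. Those that rose numbered 3 without KO 1, 2 without KO 2, 9 without KO 3, 1 without WT 1 and 4 without WT 2. Krt5 and Krt20, keratins of basal and umbrella cells, did not pass (adjusted p in edgeR = 0.226 and 0.197). Of 8 endothelial markers 3 fell (2 without WT 1 or WT 2), while Pecam1 had 94.1 ± 11.1 CPM in Ncstn KO and 103 ± 0.243 CPM in WT (SD, n = 3 and 2; adjusted p in edgeR = 0.447). Of 9 smooth muscle markers 0 passed in edgeR (2 higher and 0 lower at an unadjusted p under 0.05) or in limma-voom, 2 rose in DESeq2, and 3 rose without KO 3 in edgeR.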
